A study of Homo sapiens with 24 samples.

Results

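Proprotein convertases are proteases of the secretory pathway, and SCG5 (secretogranin V, also called 7B2) is the chaperone of one of them. The transcripts of 8 such genes, out of 20503 genes with a symbol on the array, were followed in HepaRG cells, a human hepatocellular carcinoma line, on 24 one-colour Agilent arrays. The genes are PCSK5, SCG5, PCSK1, PCSK2, PCSK6, PCSK7, FURIN and PCSK1N, and 13 of the 50683 probes carry one of their RefSeq transcripts as their name. PCSK5 and SCG5 were chosen on their measured response to Wnt3a in untransfected cells: the study lists both among the genes that Wnt3a changed there, a list drawn from the same arrays. The behaviour of the 8 genes in the other conditions was also known from earlier results of these data. Values from untransfected cells without FZD8_CRD are therefore given as a description, without a test.

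The labels describe independent cultures in triplicate, held in serum-free medium with or without mouse recombinant Wnt3a at 200 ng/ml for 72 h. This was done in 4 backgrounds, which gives 8 conditions of 3 arrays. Untransfected cells (NT) received no other agent. Other cells were electroporated with 80 pmol of a negative control siRNA (siCTRL) or of an siRNA against β-catenin (siCTNNB1). The last background (FZ8CRD) was untransfected and received mouse FZD8_CRD at 300 ng/ml, a soluble Wnt-binding domain used as an inhibitor outside the cell. It thus has no transfected counterpart, and β-catenin was targeted with 1 siRNA in 1 cell line. Arrays with the same replicate number share 1 slide, and each of the 3 slides holds all 8 conditions, so differences are also given within a slide. Standard errors, intervals and p-values come from a fit without the slide, unless stated. They do not measure the spread of the within-slide differences printed beside them. Between 58.3% and 66.5% of the spots of an array were well above background, and the number of arrays limits the precision of every value below.

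Convertases cut inactive precursors after pairs of basic residues. FURIN, PCSK5, PCSK6 and PCSK7 do so on the constitutive route of the Golgi, at the cell surface or in the matrix, on growth factors, receptors, integrins and matrix proteases. PCSK1 and PCSK2 work in the storage granules of neuroendocrine cells on prohormones, and SCG5 keeps PCSK2 from activating too early while PCSK1N inhibits PCSK1. In liver, convertases are known for maturing plasma proteins, lipases and the TGF-β family.

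Levels are log2 signals with the 75th percentile of the array set to 0, and the detection limit lies at -6.13, or 1.43% of that percentile. Brightness differs between probes for reasons of sequence, so a level is compared only with other levels of its own probe. Of the 8 genes, 6 had a probe well above background on every array of at least 1 condition and were tested. PCSK1, which cuts prohormones in granules, and PCSK2, the client of SCG5, were well above background on 0 of 24 arrays, and all 24 values of each lay at the detection limit. No statement on a change of these 2 genes can be made at this signal. Markers of neuroendocrine cells were split: CHGA was well above background on 24 arrays, SYP on 4, and INSM1 and NEUROD1 on 0.

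Markers of the cell type were read as levels. Each of the 8 hepatocyte markers was well above background on 24 of 24 arrays, as were KRT7, KRT19, SOX9 and SPP1 of the 5 biliary or progenitor markers, while EPCAM was so on 1 array. The third FZ8CRD array without Wnt3a was less like the other 2 of its group than they were like each other. Its log2 values correlated at 0.986 and 0.988 with those of the other FZ8CRD arrays, which correlated at 0.995 with each other. Correlations as low were seen within NT (0.986) and NT-WNT3A (0.984). Most differences that use this array are followed by a value without it, and counts over lists are with it. The value without it drops this array alone and keeps all arrays of the other groups. It is therefore a difference between group means and not a mean of the remaining within-slide differences.

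β-Catenin transcript (CTNNB1) was measured first, since the siRNA arms depend on it. Its log2 levels were 3.35, 3.37 and 3.51 on slides 1, 2 and 3 after control siRNA and 0.26, 0.35 and 0.52 after β-catenin siRNA. With Wnt3a they were 3.39, 3.62 and 3.67 against 0.33, 0.53 and 0.77. Every siCTNNB1 array was thus far below every siCTRL array, with a log2 difference of -3.03 without Wnt3a (adjusted p = 1.15e-09) and of -3.02 with it (adjusted p = 7.61e-10).

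PCSK5 is a convertase of the constitutive route and of the cell surface, known for cutting members of the TGF-β family and integrin chains. In untransfected cells its log2 levels were 2.44, 2.98 and 2.95 on slides 1, 2 and 3 without Wnt3a and 4.99, 5.53 and 4.92 with it. After control siRNA they were 3.00, 3.34 and 2.54 without and 4.99, 5.06 and 5.04 with Wnt3a. All 6 arrays with Wnt3a in these backgrounds lie above all 6 without it, and the transfected and the untransfected arrays overlap in both states. After β-catenin siRNA the levels were 2.57, 2.57 and 2.54 without and 2.84, 3.07 and 3.11 with Wnt3a. With FZD8_CRD they were 1.75, 1.74 and 2.82 without and 3.93, 3.91 and 3.94 with Wnt3a. Both pairs are again separate, but after β-catenin siRNA the Wnt3a arrays reach only the range of the cells that received no Wnt3a.

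**Figure D1:**
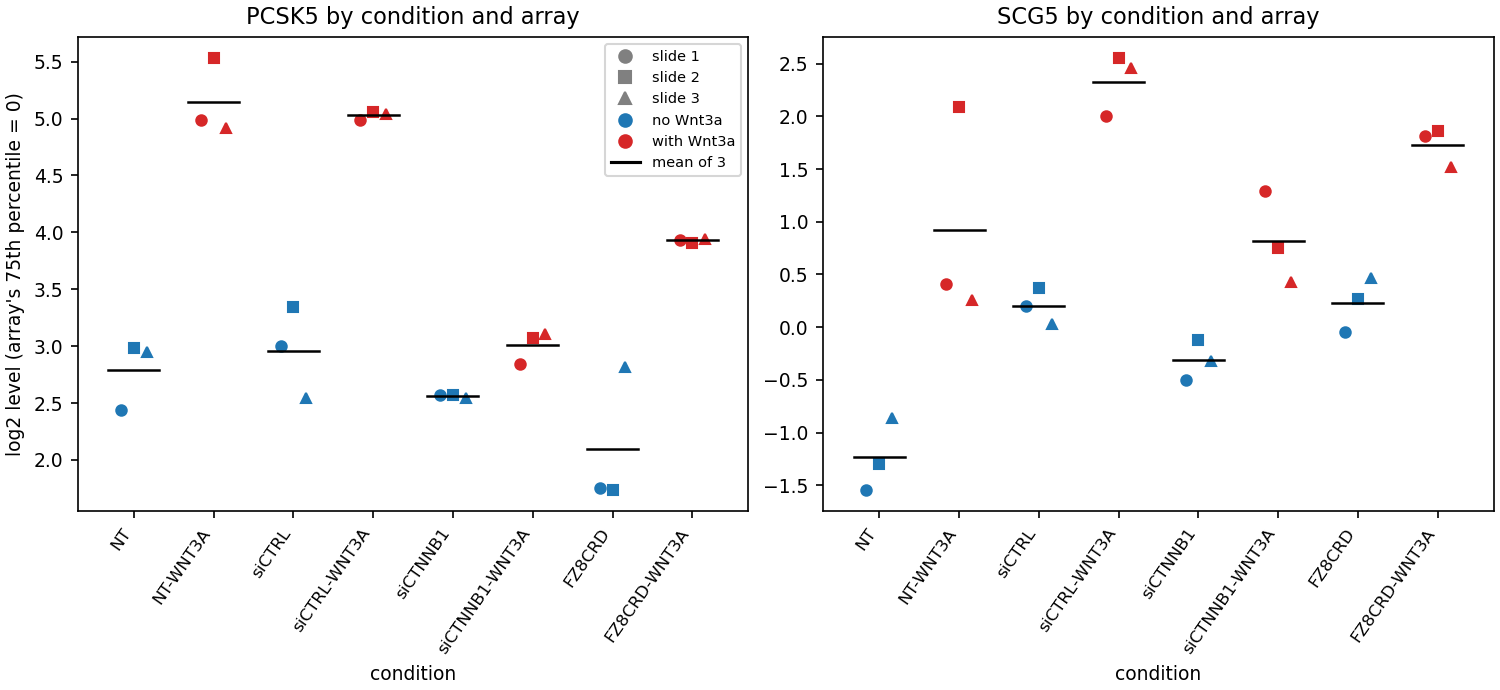
Log2 levels (75th percentile of the array = 0) of PCSK5, left, and SCG5, right, on each of the 24 arrays by condition, with 1 marker shape per slide, blue without and red with Wnt3a, and a bar at the mean of 3. For PCSK5 the siCTNNB1-WNT3A arrays lie between 2.84 and 3.11 and the siCTRL-WNT3A arrays between 4.99 and 5.06, whereas for SCG5 the lowest condition is NT, between -1.54 and -0.86.

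Ordered by mean level, PCSK5 ran from NT-WNT3A (5.15 ± 0.33, SD, n = 3) and siCTRL-WNT3A (5.03 ± 0.04) through FZ8CRD-WNT3A (3.93 ± 0.02) to siCTNNB1-WNT3A (3.01 ± 0.14), siCTRL (2.96 ± 0.40), NT (2.79 ± 0.30), siCTNNB1 (2.56 ± 0.01) and FZ8CRD (2.10 ± 0.62). The first pair overlaps, FZ8CRD-WNT3A is separate from both its neighbours, and each of the last 5 conditions overlaps the next.

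The question of the siRNA arms is how much of the response to Wnt3a needs β-catenin. After control siRNA, PCSK5 was higher with Wnt3a by 1.99, 1.72 and 2.50 log2 units on slides 1, 2 and 3. The mean log2 difference was 2.07 (standard error 0.233, 95% interval 1.58 to 2.56, 4.20-fold, adjusted p = 0.000116), the fifth smallest p among the 24617 genes tested. Of the 6 genes tested here, 2 were called higher in this comparison, PCSK5 and SCG5, and 0 lower, where 2.11% of all genes tested were called in either direction. Without replicate 1 of every condition the PCSK5 difference was 2.11 and no longer passed (adjusted p = 0.102), and the adjusted p ran from 2.82e-05 to 0.102 over 21 alternatives. In bulk RNA, fewer cells of a type and less RNA per cell cannot be told apart, here and in every result below.

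After β-catenin siRNA the within-slide differences of PCSK5 were 0.28, 0.51 and 0.56, all above 0 and all smaller than on the same slide after control siRNA. Their mean of 0.45 did not pass (95% interval -0.04 to 0.93, adjusted p = 0.526). None of the 6 genes was called in this comparison, a count of 0 by limma, with SCG5 and FURIN the 2 at an unadjusted p under 0.05, and 0.0406% of all genes tested were called. Set against each other within a slide, the 2 responses of PCSK5 differed by -1.71, -1.21 and -1.94. The test of that difference gave -1.62 (standard error 0.329, 95% interval -2.31 to -0.94), the twelfth smallest p of all genes tested, and an adjusted p of 0.164. It did not pass, in a comparison where 0 of the 6 genes and 0.0162% of all genes tested were called, with PCSK5 and SCG5 at an unadjusted p under 0.05 in limma. Fitted on the 4 siRNA conditions alone, the same difference passed (adjusted p = 0.0248), and over 27 alternatives it ran from -1.92 to -1.18 with an adjusted p from 0.0248 to 1.

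Read directly between the siRNAs, PCSK5 with Wnt3a was lower after β-catenin siRNA by -2.14, -1.98 and -1.93 on slides 1, 2 and 3, and the groups do not overlap. The mean log2 difference was -2.02 (standard error 0.233, 95% interval -2.51 to -1.53, adjusted p = 8.1e-06), a 4.06-fold lower level, and it passed under all 21 alternatives, with adjusted p up to 0.00804. In this comparison 1 of the 6 genes was called higher, PCSK6, and 2 lower, PCSK5 and SCG5, where 10.6% of all genes tested were called. Without Wnt3a the PCSK5 differences were -0.43, -0.77 and 0.01, the groups overlap, and the mean of -0.40 did not pass (adjusted p = 0.344). There 0 of the 6 genes were called, also 0 of them at an unadjusted p under 0.05 in limma, where 10.6% of all genes tested were called.

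FZD8_CRD asks whether blocking the ligand outside the cell leaves a response. PCSK5 was higher with Wnt3a in its presence by 2.18, 2.17 and 1.12 log2 units on slides 1, 2 and 3, the low value being that of the slide with the third FZ8CRD array. The mean of 1.82 passed (standard error 0.233, 95% interval 1.34 to 2.31, adjusted p = 0.000216), and without the third FZ8CRD array it was 2.18 (adjusted p = 1.78e-07). The call was lost without replicate 1 of every condition (1.64, adjusted p = 0.242), without replicate 2 (1.65, adjusted p = 0.138) and in a fit of the FZ8CRD conditions alone (adjusted p = 0.205), with a range of 1.78e-07 to 0.242 over 21 alternatives. Of the 6 genes, 3 were called higher here, PCSK5, SCG5 and FURIN, and 0 lower, where 8.3% of all genes tested were called. That is 2044 genes, and without the third FZ8CRD array 4918 genes were called. As a description, PCSK5 with Wnt3a was lower with FZD8_CRD than without it by -1.06, -1.62 and -0.98 on the 3 slides, without overlap, and without Wnt3a by -0.70, -1.24 and -0.12, with overlap. Without the third FZ8CRD array the difference between group means without Wnt3a went from -0.69 to -1.05, and the remaining 2 FZ8CRD arrays do not overlap NT. The response itself was smaller with FZD8_CRD than in untransfected cells by -0.37, -0.38 and -0.86 on slides 1, 2 and 3, a mean of -0.53. With that array alone left out and all others kept, the difference between group means was -0.17. This is not a mean over slides 1 and 2, whose own values were -0.37 and -0.38.

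PCSK5 has 3 probes on the array, of which 2 name the same transcript and the other names a longer one. The second probe of the shared transcript had log2 levels of -0.62, -0.37 and -1.02 after control siRNA and of 1.53, 1.61 and 1.42 with Wnt3a added. After β-catenin siRNA it had -1.16, -1.07 and -1.02, and -0.68, -0.64 and -0.51 with Wnt3a. The order of these 4 group means is that of the first probe, and the siRNA groups with Wnt3a are again far apart. In a fit with every probe as its own feature, its Wnt3a difference was 2.19 after control siRNA (adjusted p = 8.57e-05, and 0.103 without replicate 1, the highest of 17 alternatives) and 0.48 after β-catenin siRNA (adjusted p = 0.513). Its responses differed by -1.72 (adjusted p = 0.125), and it passed without replicate 3 (-1.61, adjusted p = 0.0158) and on the 4 siRNA conditions alone (adjusted p = 0.012), with an adjusted p up to 1 over 23 alternatives. Between siRNAs with Wnt3a the probe gave -2.13 (adjusted p = 5.39e-06).

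**Figure D2:**
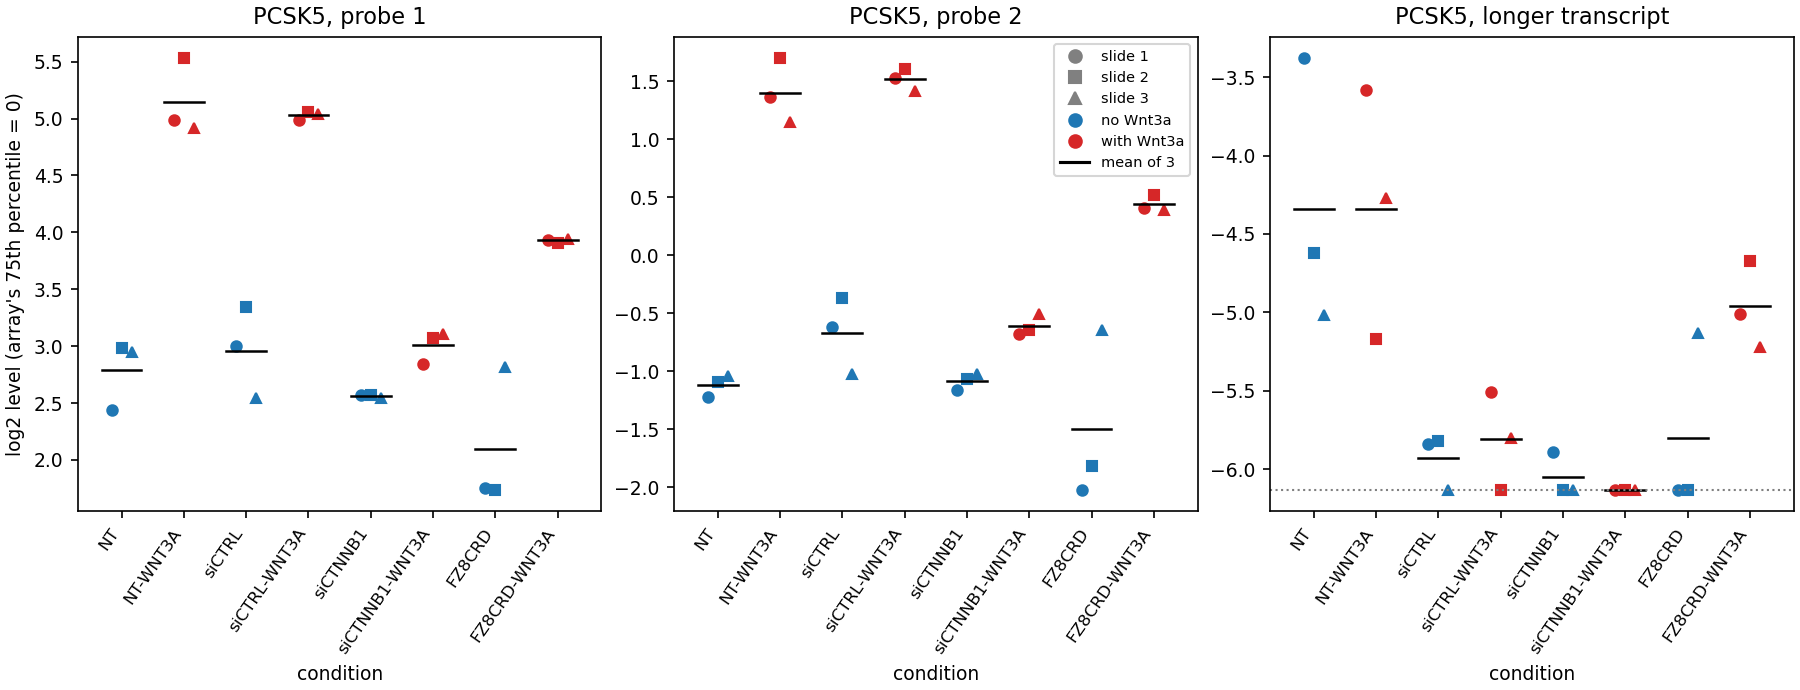
Log2 levels (75th percentile of the array = 0) of the 3 PCSK5 probes on each array by condition, with 1 marker shape per slide, blue without and red with Wnt3a, and a bar at the mean of 3. The dotted line in the right panel is the detection limit, -6.13, where 9 of the 24 values of the longer-transcript probe lie; the vertical axes differ between panels.

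The probe named for the longer PCSK5 transcript followed another course. Its place on the transcripts rests on its name alone, since its sequence was not checked. Its levels were -3.38, -4.62 and -5.02 in untransfected cells and -3.58, -5.17 and -4.27 with Wnt3a, so these groups overlap and both means are -4.34. After control siRNA it had -5.84, -5.82 and -6.13, and -5.51, -6.13 and -5.80 with Wnt3a. All 6 untransfected arrays lie above all 6 control siRNA arrays, and 9 of the 24 values sit at the detection limit, with 15 arrays well above background. Its Wnt3a difference was 0.12 after control siRNA (adjusted p = 0.979). With FZD8_CRD it was 0.83 (adjusted p = 0.22), or 1.17 without the third FZ8CRD array (adjusted p = 0.0482) and 1.88 with a floor of 1 intensity unit (adjusted p = 0.0402). The other 2 FZ8CRD arrays lie at the detection limit, so these sizes and their passing depend on where the floor is set. Over 17 alternatives the adjusted p ran from 0.0402 to 0.929.

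SCG5 is a small granin-like protein that binds PCSK2 in the early secretory pathway and escorts it to the granule. Its log2 levels in untransfected cells were -1.54, -1.30 and -0.86 on slides 1, 2 and 3 without Wnt3a and 0.41, 2.09 and 0.26 with it. After control siRNA they were 0.20, 0.37 and 0.03 without and 2.00, 2.55 and 2.46 with Wnt3a. The Wnt3a arrays are higher in both backgrounds without overlap, the second untransfected Wnt3a array is far above the other 2, and all siCTRL arrays lie above all NT arrays. After β-catenin siRNA the levels were -0.50, -0.12 and -0.32 without and 1.29, 0.75 and 0.43 with Wnt3a. With FZD8_CRD they were -0.05, 0.27 and 0.47 without and 1.81, 1.86 and 1.52 with Wnt3a. Both pairs are separate, and the FZ8CRD arrays without Wnt3a share the range of the siCTRL arrays rather than that of NT.

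Ordered by mean level, SCG5 ran from siCTRL-WNT3A (2.33 ± 0.30, SD, n = 3) through FZ8CRD-WNT3A (1.73 ± 0.19), NT-WNT3A (0.92 ± 1.02), siCTNNB1-WNT3A (0.82 ± 0.43), FZ8CRD (0.23 ± 0.26), siCTRL (0.20 ± 0.17) and siCTNNB1 (-0.31 ± 0.19) to NT (-1.23 ± 0.35). The first condition is separate from the second, the next 4 each overlap the one after, and siCTRL, siCTNNB1 and NT are separate from each other.

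Transfection and FZD8_CRD each went with more SCG5 transcript even without Wnt3a, as a description. Against NT on the same slide, siCTRL was higher by 1.74, 1.67 and 0.88 log2 units, a mean of 1.43 or 2.69-fold. FZ8CRD was higher than NT by 1.49, 1.57 and 1.32, a mean of 1.46 or 2.75-fold, and in both cases the groups do not overlap. With the third FZ8CRD array alone left out and all NT arrays kept, the difference between group means was 1.34. On the first PCSK5 probe the siCTRL and NT arrays overlap, with a mean difference of 0.17. The second probe of that transcript was higher in siCTRL by 0.60, 0.71 and 0.02 (mean 0.44), without overlap. Against NT, FZ8CRD arrays had mean differences of -0.69 on the first and -0.38 on the second PCSK5 probe, both with overlap. Without the third FZ8CRD array these differences between group means were -1.05 and -0.80, both without overlap. In untransfected cells the Wnt3a differences of SCG5 were 1.95, 3.39 and 1.11 (mean 2.15, 4.44-fold), and those of PCSK5 were 2.55, 2.55 and 1.97 (mean 2.36, 5.12-fold).

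After control siRNA, SCG5 was higher with Wnt3a by 1.80, 2.18 and 2.43 on the 3 slides. The mean of 2.14 passed (standard error 0.333, 95% interval 1.44 to 2.83, 4.40-fold, adjusted p = 0.00307), although not without replicate 1 of every condition (2.31, adjusted p = 0.158), and over 21 alternatives the adjusted p ran from 0.000599 to 0.158. After β-catenin siRNA the differences were 1.78, 0.86 and 0.74, a mean of 1.13 that did not pass over all genes (95% interval 0.43 to 1.82, adjusted p = 0.243). Slide 1 is the one on which both siRNAs gave nearly the same response, and slides 2 and 3 are those on which the response after β-catenin siRNA was the smaller one. The within-slide differences of the responses were accordingly -0.02, -1.32 and -1.69. Their mean of -1.01 did not pass (95% interval -1.99 to -0.03, adjusted p = 1).

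Between siRNAs, SCG5 with Wnt3a was lower after β-catenin siRNA by -0.71, -1.80 and -2.03 on slides 1, 2 and 3, without overlap of the groups. The mean of -1.51 passed (standard error 0.333, 95% interval -2.21 to -0.82, adjusted p = 0.00459), but not without replicate 3 of every condition (-1.26, adjusted p = 0.0716), and the adjusted p ran from 0.00255 to 0.0716 over 21 alternatives. Without Wnt3a the differences were -0.69, -0.48 and -0.34, again without overlap, and their mean of -0.50 did not pass (adjusted p = 0.42). It passed in a fit of these 2 conditions alone (adjusted p = 0.0432), and over 21 alternatives the adjusted p ran from 0.0432 to 1.

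With FZD8_CRD, SCG5 was higher with Wnt3a by 1.86, 1.59 and 1.05. The mean of 1.5 passed (standard error 0.333, 95% interval 0.81 to 2.19, adjusted p = 0.00901), as it did without the third FZ8CRD array (1.62, adjusted p = 0.00423). It did not pass without the first FZ8CRD array (1.36, adjusted p = 0.076), the second FZ8CRD array (1.52, adjusted p = 0.0522), replicate 1 of every condition (1.32, adjusted p = 0.467), replicate 2 (1.46, adjusted p = 0.181), or in a fit of the FZ8CRD conditions alone (adjusted p = 0.19). The range over 21 alternatives was 0.00423 to 0.467.

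**Figure D3:**
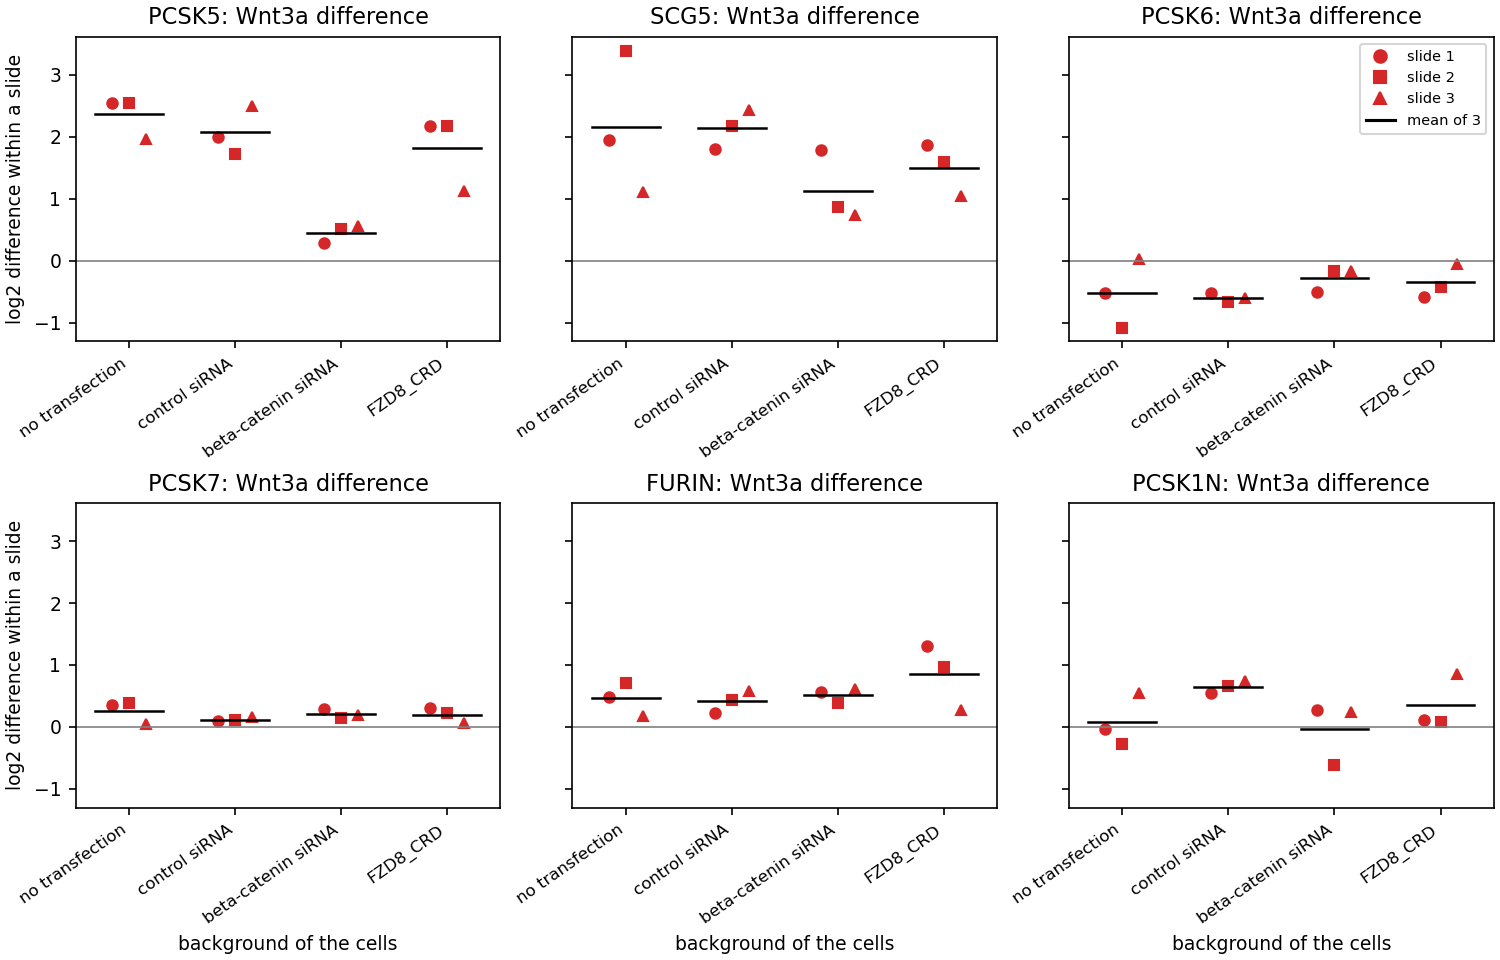
Log2 difference between the array with and the array without Wnt3a on the same slide for the 6 tested genes in the 4 backgrounds, with 1 marker shape per slide and a bar at the mean of 3. The PCSK5 values after β-catenin siRNA lie between 0.28 and 0.56, below all its other values, and the PCSK7 values lie between 0.05 and 0.38 in all backgrounds.

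The promoter windows of PCSK5 and SCG5 are shown because these 2 genes were called with Wnt3a after control siRNA. They come from RefSeq (build GRCh38.p14), which holds 13 windows of 300 bases around the start sites of the 8 genes among 35116 windows in all. Both strands were searched for the TCF/LEF letters CTTTGAA and CTTTGAT, found in 6.86% of all windows, and for the GC box GGGCGG, found in 45.0%. Capitals mark the GC boxes. The PCSK5 window is chr9:75890423-75890722 and the SCG5 window chr15:32641460-32641759, both on the plus strand.
PCSK5: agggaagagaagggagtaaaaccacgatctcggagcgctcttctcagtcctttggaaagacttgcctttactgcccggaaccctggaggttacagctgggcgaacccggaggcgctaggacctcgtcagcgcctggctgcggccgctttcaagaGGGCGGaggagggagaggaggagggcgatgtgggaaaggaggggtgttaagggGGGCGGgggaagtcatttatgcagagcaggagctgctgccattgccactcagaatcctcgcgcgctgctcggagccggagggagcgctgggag
SCG5: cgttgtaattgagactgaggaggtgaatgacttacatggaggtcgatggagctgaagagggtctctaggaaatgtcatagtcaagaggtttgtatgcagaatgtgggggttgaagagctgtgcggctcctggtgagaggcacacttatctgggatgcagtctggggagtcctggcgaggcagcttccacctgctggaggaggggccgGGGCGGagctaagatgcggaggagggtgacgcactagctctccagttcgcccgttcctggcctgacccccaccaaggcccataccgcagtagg
The PCSK5 window holds 2 GC boxes and the SCG5 window 1, and neither holds the TCF/LEF letters. The GC content is 62.3% and 58.0%, against a median of 58.7% over all windows. TCF/LEF letters stand in 2 of the 13 windows, 1 of PCSK1 and 1 of PCSK2, the genes at the detection limit. An absent match says only that these letters are not in this window.

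PCSK1N (proSAAS) is the granule protein that inhibits PCSK1. It stood well above background on 24 arrays, and the array of slide 3 had its highest level in each of the 8 conditions. After control siRNA its log2 levels were 0.86, 0.56 and 1.76 without and 1.41, 1.21 and 2.50 with Wnt3a. After β-catenin siRNA they were 0.97, 1.64 and 2.41 without and 1.25, 1.03 and 2.65 with Wnt3a. The groups overlap in every comparison of siRNA conditions, and from NT-WNT3A (1.90 ± 0.86) down to siCTRL (1.06 ± 0.63) each condition overlaps the next. Within slides its Wnt3a differences were 0.55, 0.66 and 0.74 after control siRNA, all above 0, and 0.27, -0.61 and 0.24 after β-catenin siRNA. The former had a mean of 0.65 (adjusted p = 0.704 in the fit without the slide), and the adjusted p ran from 0.0557 to 1 over 21 alternatives. Leaving out arrays or replicate numbers moved this mean to between 0.25 and 0.997. PCSK1N was called in 0 of the 6 comparisons, its log2 differences lay between -0.68 and 0.65, and 0 of them reached an unadjusted p under 0.05 in limma. With the slide as a block, 1 call appeared: between siRNAs without Wnt3a the log2 difference of 0.62 had an adjusted p of 0.0295 with the block and 0.558 without it, and the within-slide differences were 0.11, 1.09 and 0.65. Over 21 alternatives the adjusted p ran from 0.0295 to 0.951, and leaving out arrays or replicate numbers moved the difference to between 0.249 and 0.968.

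PCSK6 (PACE4) is bound to the matrix and known for cutting TGF-β family precursors such as NODAL and LEFTY. After control siRNA its log2 levels were 1.04, 0.96 and 0.79 without and 0.52, 0.30 and 0.18 with Wnt3a. After β-catenin siRNA they were 1.26, 1.24 and 1.35 without and 0.76, 1.07 and 1.18 with Wnt3a. Its direction is opposite to that of PCSK5 and SCG5: Wnt3a arrays lie below the others after either siRNA, and β-catenin siRNA arrays lie above control siRNA arrays. Over the 8 conditions it ran from NT (1.43 ± 0.36) to FZ8CRD-WNT3A (0.03 ± 0.03), where FZ8CRD-WNT3A is separate from siCTRL-WNT3A, the next condition, and overlaps FZ8CRD, and NT overlaps siCTNNB1.

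With Wnt3a, PCSK6 was higher after β-catenin siRNA than after control siRNA by 0.24, 0.76 and 1.00 on the 3 slides. The mean of 0.67 passed (standard error 0.186, 95% interval 0.28 to 1.06, adjusted p = 0.0238), and the second PCSK6 probe, for another transcript, gave 0.71 (adjusted p = 0.00926). On the first probe the call was lost without the second siCTRL-WNT3A array (adjusted p = 0.0733), the second siCTNNB1-WNT3A array (adjusted p = 0.0863), the third siCTRL-WNT3A array (adjusted p = 0.1), the third siCTNNB1-WNT3A array (adjusted p = 0.11), replicate 2 (adjusted p = 0.268) or replicate 3 (adjusted p = 0.127). It was lost with no filter on dim probes (adjusted p = 0.0597) and with spike-in scaling (0.46, adjusted p = 0.667), and the adjusted p ran from 0.0134 to 0.667 over 21 alternatives. On the second probe it was lost without the third siCTNNB1-WNT3A array (0.60, adjusted p = 0.0617), without replicate 2 (0.64, adjusted p = 0.202), without replicate 3 (0.53, adjusted p = 0.111) and with spike-in scaling (adjusted p = 0.571), with a range of 0.00516 to 0.571 over 17 alternatives. Without Wnt3a the siRNA difference of the first probe was 0.35 (adjusted p = 0.286), which passed only in a fit of those 2 conditions (adjusted p = 0.0277, range up to 1 over 21 alternatives), and of the second 0.46 (adjusted p = 0.0966, range 0.00372 to 0.807 over 17 alternatives).

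The Wnt3a differences of PCSK6 after control siRNA were -0.52, -0.66 and -0.61 on the first probe, a mean of -0.60 that did not pass (adjusted p = 0.102), and it passed in a fit of the 2 conditions alone (adjusted p = 0.0333, range up to 0.922 over 21 alternatives). The second probe gave -0.46, -0.77 and -0.79. Its mean of -0.67 had an adjusted p of 0.0475 and was not called in 11 of 17 alternatives, which include leaving out any of the 3 siCTRL arrays, the second or the third siCTRL-WNT3A array, or any replicate number (adjusted p from 0.108 to 0.52). Over all 17 the adjusted p ran from 0.0261 to 0.919. After β-catenin siRNA the first probe gave -0.28 (adjusted p = 0.679) and with FZD8_CRD -0.35 (adjusted p = 0.303), or -0.52 without the third FZ8CRD array (adjusted p = 0.0679). The second probe gave -0.42 after β-catenin siRNA (adjusted p = 0.395) and -0.22, -0.19 and 0.02 with FZD8_CRD, a mean of -0.13 (adjusted p = 0.786). Without Wnt3a, PCSK6 with FZD8_CRD was lower than in NT by -1.13, -1.04 and -0.99, without overlap, as a description (mean -1.05). With the third FZ8CRD array alone left out and all NT arrays kept, the difference between group means was -0.88, which is not a mean of the remaining within-slide values.

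FURIN is the general convertase of the trans-Golgi network. Its log2 levels with FZD8_CRD were -3.19, -3.07 and -2.03 without and -1.88, -2.12 and -1.75 with Wnt3a. The third FZ8CRD array lies among the Wnt3a arrays, so the groups overlap on it. The within-slide differences were 1.30, 0.96 and 0.28, with a mean of 0.85 (standard error 0.222, 95% interval 0.38 to 1.31, adjusted p = 0.0229), and 1.21 without the third FZ8CRD array (adjusted p = 3.25e-05). The call was lost without the first FZ8CRD array (0.63, adjusted p = 0.196), the second (0.69, adjusted p = 0.17), the first FZ8CRD-WNT3A array (0.83, adjusted p = 0.0774), the third (0.76, adjusted p = 0.0896), replicate 1 (adjusted p = 0.657) or replicate 2 (adjusted p = 0.507). It was lost, too, with spike-in scaling (0.75, adjusted p = 0.314), with no filter on dim probes (adjusted p = 0.0518) and in a fit of the FZ8CRD conditions alone (adjusted p = 0.288), with a range of 3.25e-05 to 0.657 over 21 alternatives. Differences with Wnt3a were 0.42 after control siRNA (adjusted p = 0.44) and 0.52 after β-catenin siRNA (adjusted p = 0.407), and between siRNAs 0.02 without and 0.13 with Wnt3a, none of them called.

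PCSK7 is a membrane-bound convertase of broad tissue range. Its conditions spanned the least of the 6 tested genes, from NT (0.25 ± 0.20) to siCTNNB1-WNT3A (0.80 ± 0.13), and each condition overlaps the next. As a description, without Wnt3a siCTRL was higher than NT by 0.59, 0.30 and 0.21 on the 3 slides. FZ8CRD was higher than NT by 0.45, 0.14 and 0.36 (mean 0.31, or 0.28 between group means with the third FZ8CRD array alone left out). Neither group overlaps NT, on any of the PCSK7 probes. Wnt3a differences were above 0 on all 3 slides in every background, though with spike-in scaling the mean in untransfected cells turned from 0.26 to -0.13. The other means were 0.12 after control siRNA (95% interval -0.13 to 0.37), 0.21 after β-catenin siRNA and 0.20 with FZD8_CRD (0.23 without the third FZ8CRD array), none of them called. For FURIN in untransfected cells spike-in scaling moved the mean from 0.46 to 0.07. Of the 3 PCSK7 probes, all for 1 transcript, the dimmest gave 0.30 with FZD8_CRD (adjusted p = 0.0481), or 0.33 without the third FZ8CRD array (adjusted p = 0.0269). This call was lost in 11 of 17 alternatives, among them leaving out any FZ8CRD-WNT3A array or the first or second FZ8CRD array (adjusted p from 0.0619 to 0.233), replicate 1 (adjusted p = 0.757) or replicate 2 (adjusted p = 0.583), and its adjusted p ran from 0.0179 to 1.

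**Figure D4:**
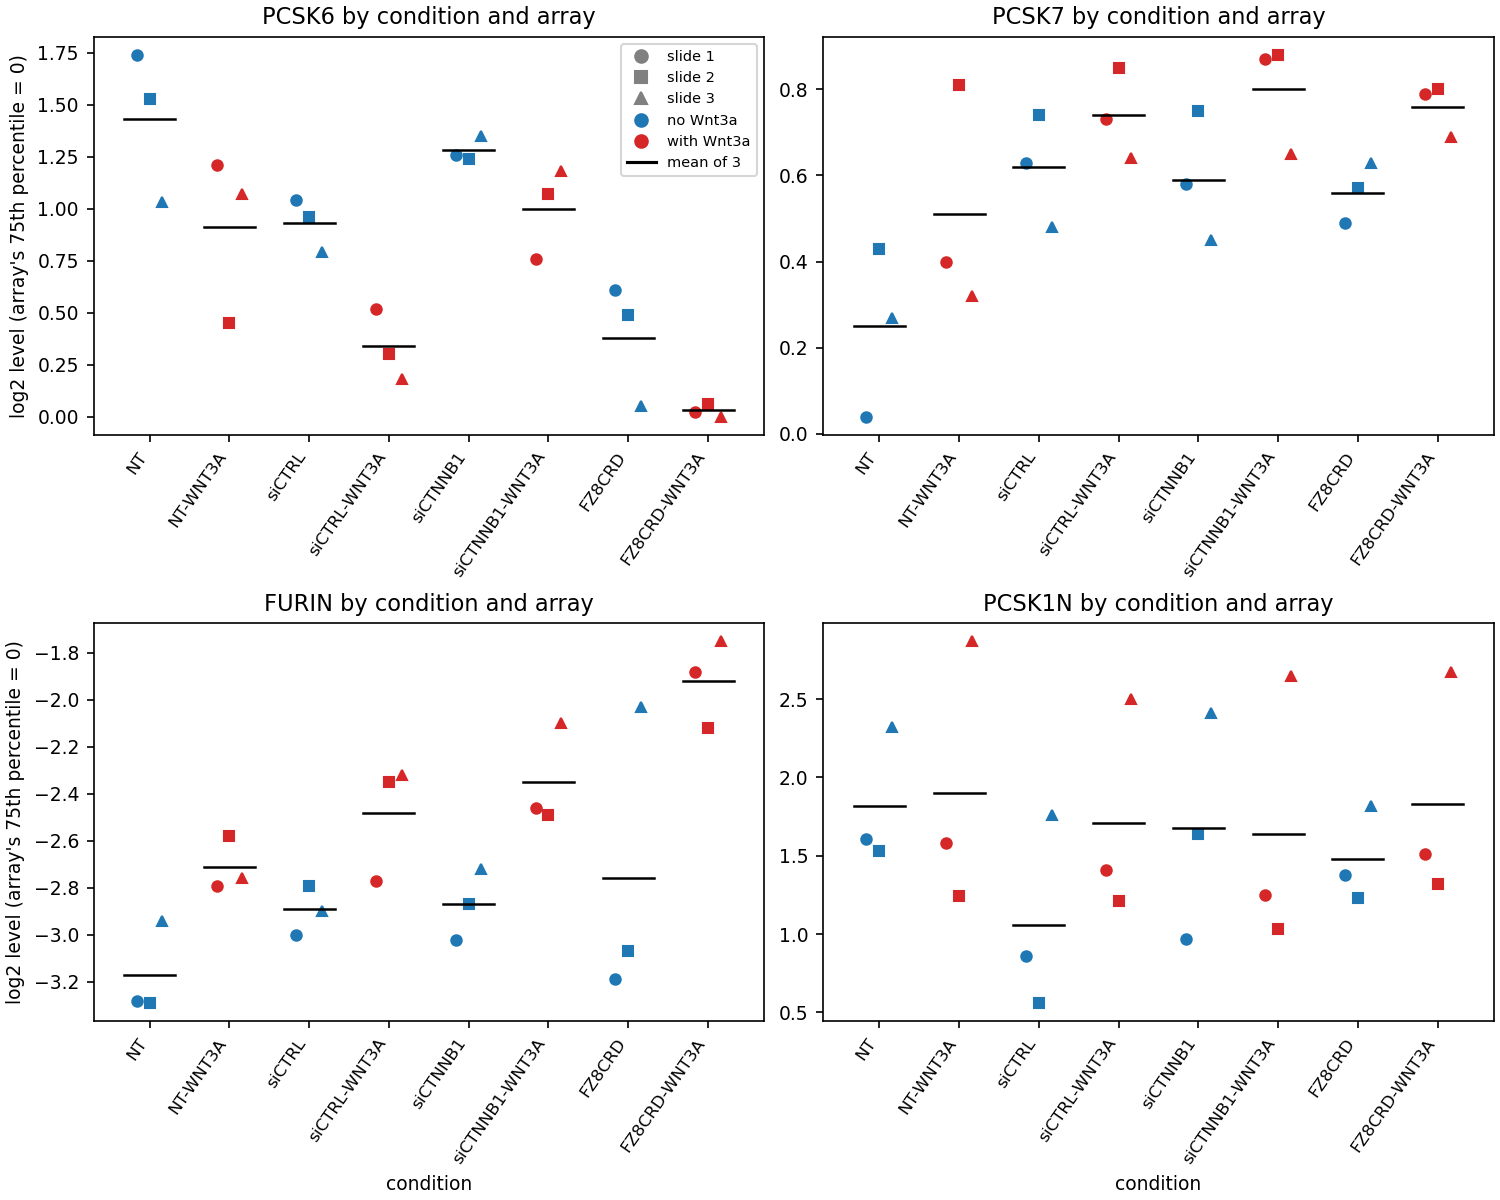
Log2 levels (75th percentile of the array = 0) of PCSK6, PCSK7, FURIN and PCSK1N on each array by condition, with 1 marker shape per slide, blue without and red with Wnt3a, and a bar at the mean of 3. The third FZ8CRD array lies at -2.03 for FURIN, and the slide 3 array is the highest of its condition for PCSK1N in all 8 conditions; the vertical axes differ between panels.

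Scaling by spike-in probes instead of the 75th percentile moves the median log2 difference of all genes tested. It goes to 0.19 for Wnt3a after control siRNA, to -0.10 after β-catenin siRNA, to -0.28 for the difference of these responses, to -0.22 between siRNAs with Wnt3a and to -0.38 for Wnt3a in untransfected cells, from values within 0.04 of 0. The PCSK5 and SCG5 calls named above did not depend on this choice, and the PCSK6 and FURIN calls did.

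Of 62 genes in a list of known convertase substrates, 53 were tested. After control siRNA, 5 were called higher with Wnt3a and 0 lower, where 2.11% of all genes were called, and the median log2 difference of the list was 0.13 against 0.02 over all genes. BMP7, a TGF-β family ligand, is 1 of the 5 and passed the filter on dim probes only through its siCTRL-WNT3A arrays, the group in which it is high. COL5A1, a fibrillar collagen chain, had 0.99 (adjusted p = 0.0147, called in 14 of 21 alternatives). With FZD8_CRD, 10 were higher and 2 lower with Wnt3a, where 8.3% of all genes were called, with a median of 0.20 against 0.02. LEFTY1, a secreted TGF-β family antagonist, had levels of -6.13, -6.13 and -3.48 in FZ8CRD and of -2.70, -2.56 and -2.36 with Wnt3a. It is 1 of the 10, but it passed the filter on dim probes only through its FZ8CRD-WNT3A arrays, so the call rests on the group that let it in. CDH1, the epithelial cadherin, had -1.60 (adjusted p = 0.0128, called in 14 of 21), or -2.10 without the third FZ8CRD array (adjusted p = 0.000213). After β-catenin siRNA, 0 were called with limma (0.0406% of all genes) and 15 had an unadjusted p under 0.05, against 16 after control siRNA. The list median after β-catenin siRNA was 0.105, against 0.03 over all genes. For the difference of the responses the counts were 0 (0.0162% of all genes) and 7, with a list median of -0.01 against 0.01.

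Between siRNAs without Wnt3a, 3 substrates were higher and 6 lower after β-catenin siRNA, and with Wnt3a 5 were higher and 11 lower, where 10.6% of all genes were called in each, with a list median in the latter of -0.16 against -0.01. BMP7 is 1 of these 11, again through its siCTRL-WNT3A arrays alone. EDN1, the endothelin precursor, had -1.45 with Wnt3a (adjusted p = 9.02e-06) and was called in all 21 alternatives. LIPG, a lipase that convertases inactivate, had -1.44 (adjusted p = 0.000912, called in 20 of 21) and, with FZD8_CRD, a Wnt3a difference of 1.12 (adjusted p = 0.012, called in 14 of 21), or 1.35 without the third FZ8CRD array (adjusted p = 0.00143). Which enzyme cuts which of these products in HepaRG cells was not measured.

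Among 3 convertase inhibitors, all tested, SERPINB8, a serpin that binds FURIN, was lower after β-catenin siRNA without Wnt3a (-0.63, adjusted p = 0.0211, called in 14 of 21 alternatives) and with it (-0.86, adjusted p = 0.00185, called in 19 of 21). Between siRNAs 10.6% of all genes were called in each state. With Wnt3a, 0 of the 3 were called by limma in each of the 3 tested backgrounds, where 2.11%, 0.0406% and 8.3% of all genes were called, and at an unadjusted p under 0.05 stood 0 after control siRNA, 0 after β-catenin siRNA and 2 with FZD8_CRD. Of 3 other subtilisin-like convertases, 2 were called lower after β-catenin siRNA without Wnt3a, beside 10.6% of all genes, MBTPS1, the site-1 protease, with -0.30 (adjusted p = 0.00454, called in 18 of 21), and 0 by limma in the other 5 comparisons, where 2 had an unadjusted p under 0.05 with Wnt3a after β-catenin siRNA and 3 between siRNAs with Wnt3a.

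Genes of the granule pathway in which SCG5 works were read beside all genes, of which 2.11%, 0.0406% and 8.3% were called with Wnt3a after control siRNA, after β-catenin siRNA and with FZD8_CRD. Of 7 tested granins and granule cargo genes, 0 were called by limma in any of the 3 Wnt3a comparisons, with 1, 0 and 2 at an unadjusted p under 0.05 after control siRNA, after β-catenin siRNA and with FZD8_CRD. Of 8 tested genes of regulated exocytosis, RAB3A, a vesicle GTPase, was lower after control siRNA (-0.66, adjusted p = 0.0332, called in 9 of 21 alternatives). Of 5 tested carboxypeptidases and amidation enzymes, which finish peptides after a convertase cut, QPCT was higher with FZD8_CRD (1.01, adjusted p = 0.0409, called in 7 of 19), or 1.27 without the third FZ8CRD array (adjusted p = 0.0068). Only 1 of its 3 FZ8CRD arrays was well above background, so the size depends on the floor. Between siRNAs, where 10.6% of all genes were called in either state, VGF, a granule peptide precursor, had -0.75 without Wnt3a (adjusted p = 0.00133, called in 19 of 21) and -0.96 with it (adjusted p = 9.24e-05, called in all 21). CHGA, the chromogranin of dense-core granules, had 0.58 without Wnt3a (adjusted p = 0.0134, called in 16 of 21) and PAM, the amidating enzyme, 0.44 (adjusted p = 0.0253, called in 11 of 21). STX1A, a plasma-membrane fusion protein, had 0.86 without Wnt3a (adjusted p = 0.000142, called in 20 of 21) and 0.67 with it (adjusted p = 0.00113, called in 19 of 21), and SYT1, the calcium sensor of exocytosis, had -0.53 with Wnt3a (adjusted p = 0.0331, called in 8 of 21).

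Wnt feedback genes give a measure of the pathway in the same arrays. Of 8 tested, 4 were called higher with Wnt3a after control siRNA (RNF43, TCF7, AXIN2 and LEF1, the last 2 in 16 and 8 of 21 alternatives), 0 after β-catenin siRNA in limma (1 at an unadjusted p under 0.05), and 2 higher and 1 lower with FZD8_CRD, where 2.11%, 0.0406% and 8.3% of all genes were called. Between siRNAs 5 were lower without and 6 lower with Wnt3a, beside 10.6% of all genes in each, and NKD1, 1 of the 6, passed the filter on dim probes only through its siCTRL-WNT3A arrays. RNF43, a ubiquitin ligase that removes Wnt receptors, had 1.02 after control siRNA (adjusted p = 9.75e-05, called in all 21 alternatives), and its responses differed between siRNAs by -1.23 (adjusted p = 0.00129, called in 24 of 27). TCF7, a transcription factor partner of β-catenin, had 1.40 after control siRNA (adjusted p = 0.00755, called in 18 of 21) and 1.64 with FZD8_CRD (adjusted p = 0.00107, called in 18 of 21), or 2.09 without the third FZ8CRD array (adjusted p = 1.31e-07).

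Mesenchymal markers were read beside PCSK5. Their summed signal over 7 genes, in multiples of the 75th percentile, was 11.6, 12 and 10.7 after control siRNA and 15.1, 16.2 and 15.8 with Wnt3a added. It was 10.6, 11 and 10 after β-catenin siRNA and 11.7, 11.6 and 12.1 with Wnt3a, and with FZD8_CRD 12.5, 13.1 and 14.7 against 23.0, 22.6 and 21.6. The Wnt3a arrays are higher in each background, least so after β-catenin siRNA. ACTA2 was the brightest of these markers in every condition, so the sum weighs its probe most and is not an even reading of all 7. PDGFRB was well above background on 7 of 24 arrays and THY1 on 0. Of 6 tested, 3 were called higher with Wnt3a after control siRNA (2.11% of all genes) and 4 with FZD8_CRD (8.3%). After β-catenin siRNA 2 were lower without Wnt3a, VIM (-0.86, adjusted p = 0.00552, called in 18 of 21 alternatives) and PDGFRB, which passed the filter on dim probes only through its siCTRL arrays, the higher group of this comparison. With Wnt3a 4 were lower, and 10.6% of all genes were called in each state. COL1A1, the fibrillar collagen, had 2.19 after control siRNA (adjusted p = 0.00289, called in 19 of 21 alternatives). The part of these markers in the PCSK5 and SCG5 results was not tested.

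Hepatocyte markers were summed in the same way, and the brightest probe again weighs most: ALB, or SERPINA1 in siCTRL-WNT3A. The summed signal of 8 genes was 1420, 1100 and 781 in NT and 905, 393 and 914 with Wnt3a, 409, 375 and 392 in siCTRL and 266, 189 and 259 with Wnt3a. It was 615, 471 and 594 in siCTNNB1 and 279, 385 and 490 with Wnt3a, and 371, 251 and 337 in FZ8CRD and 361, 349 and 346 with Wnt3a. The groups with and without Wnt3a overlap in NT, siCTNNB1 and FZ8CRD, and not in siCTRL. Within slides, the sum was lower with Wnt3a on every slide after either siRNA. The list median log2 difference with Wnt3a was -0.62 after control siRNA, -0.64 after β-catenin siRNA and 0.22 with FZD8_CRD. All 8 markers were well above background in every condition. After control siRNA, 0 of the 8 were called with Wnt3a in limma and 3 had an unadjusted p under 0.05, beside 2.11% of all genes called. With FZD8_CRD 1 was higher, APOA1 (2.22, or 3.23 without the third FZ8CRD array, called in 11 of 21 alternatives), beside 8.3% of all genes. In the same comparison 1 was lower, APOB (-2.15, or -2.8 without that array, called in 18 of 21). Between siRNAs with Wnt3a 1 was higher (10.6%). Of the 4 tested biliary or progenitor markers, 1 was higher between siRNAs without Wnt3a, and 1 higher and 1 lower with it, beside 10.6% of all genes in each. The part of these markers in the SCG5 result was not tested.

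Leukocyte and endothelial markers were read as well. PTPRC and CD14 were well above background on 24 arrays, CD3E on 16, CD163 on 1 and MS4A1 on 0, and all 4 endothelial markers were so on 24 arrays. Of 3 tested leukocyte markers, 1 was called between siRNAs in each state, beside 10.6% of all genes. This was CD14, lower after β-catenin siRNA without Wnt3a (-1.12, adjusted p = 0.000618, called in 19 of 21 alternatives) and with it (-1.30, adjusted p = 0.000103, called in all 21). PTPRC and CD3E went the other way and were not called, and the list median was 0.265 without and 0.08 with Wnt3a. Of 4 tested endothelial markers, 1 was called between siRNAs without Wnt3a (10.6% of all genes) and 1 for Wnt3a with FZD8_CRD (8.3%), with list medians of -0.06 and 0.06. PECAM1 was lower after β-catenin siRNA without Wnt3a (-0.94, adjusted p = 0.0196, called in 14 of 21). The endothelial sum, led by KDR, was 3.21, 3.29 and 2.91 in siCTRL and 3.6, 3.61 and 3.52 in siCTNNB1. KDR was lower with Wnt3a in the presence of FZD8_CRD (-0.99, adjusted p = 0.00704, called in 15 of 21 alternatives), or -1.35 without the third FZ8CRD array (adjusted p = 2.83e-06).

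Likeness to PCSK5 and SCG5 was measured as Pearson correlation of log2 levels over the 24 arrays, which share conditions and slides, across 15945 other genes with a symbol. The 5 genes most like PCSK5 were DLX5 (r = 0.949), IHH (0.947), SPARC (0.913), LRRC15 (0.907, well above background on 22 arrays) and OLFML3 (0.900). For SCG5 they were VCAN (0.943), MYCN (0.941, on 21 arrays), PCOLCE2 (0.924), PTPN22 (0.923) and IQCJ-SCHIP1 (0.923). The 2 lists share no gene. IHH had log2 levels of 3.28, 3.16 and 3.21 in siCTRL-WNT3A and 1.14, 1.45 and 1.78 in siCTNNB1-WNT3A, a gap like that of PCSK5. VCAN had 0.43, 0.73 and 1.02 in NT and 1.66, 1.68 and 1.49 in siCTRL, the step between these backgrounds that SCG5 also shows. IHH and VCAN were picked for their correlation over these same arrays, so the like gap and step are no further result. Between members, PCSK5 and SCG5 correlated at 0.696, SCG5 and PCSK6 at -0.798, SCG5 and PCSK7 at 0.744 and PCSK6 and FURIN at -0.709 over the same 24 arrays. These include the untransfected arrays on which PCSK5 and SCG5 were chosen for their response to Wnt3a. The correlation of PCSK5 with SCG5 is therefore set in part by that choice and is a description only.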

How the data were processed

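RNA of HepaRG cells from 24 cultures was read on one-colour Agilent arrays, 3 per condition. The deposited series matrix holds log2 values that the authors made in GeneSpring relative to the 75th percentile, each probe centred. The scanner files hold processed signal as intensity, per the file headers, and were used here. Between 58.3% and 66.5% of spots per array were well above background. Signals were divided by the 75th percentile of the array, put on the log2 scale with a floor at the median detection limit (-6.13), outlier spots were dropped and duplicate spots averaged. A probe was kept (31031 probes) if some condition had all 3 of its arrays well above background. Probes were joined to symbols by RefSeq transcript, and the probe with the highest mean stood for its gene (24617 genes, 8640 without a symbol).

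limma 3.58.1 in R 4.3.3 fitted 8 condition means with trended moderation, and 6 comparisons were tested two-sided at a Benjamini-Hochberg adjusted p under 0.05. Python 3.11.15, pandas 2.3.3 and matplotlib 3.10.9 made tables and plots. Comparisons that use untransfected arrays without FZD8_CRD were described without a test, and comparisons with a shared group share its arrays. Replicate numbers were checked as pairs, by correlating differences from the condition mean between arrays of different conditions. The mean correlation was 0.384 between arrays of the same number, and it was above 0.1 in 82 of 84 such pairs. Between arrays of other numbers it was -0.191. Differences from a condition mean cancel within the condition, so this negative value follows largely from the first. The main fit leaves the slide out, so its p-values do not use this pairing. The slide is a replicate block in 1 alternative, which changed the call of 1 of the 36 results of the tested member genes.

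The 8 genes and the gene lists were chosen with earlier results of these data known. Named genes are the 8 genes, CTNNB1, up to 5 genes per list with the largest absolute log2 difference among those called, the 5 genes most correlated with PCSK5 and with SCG5, and the cell type markers as levels. Lists cover convertase substrates, inhibitors, other subtilisin-like convertases, carboxypeptidases and amidation, granins and granule cargo, regulated exocytosis, Wnt feedback targets, and hepatocyte, biliary or progenitor, mesenchymal, neuroendocrine, leukocyte and endothelial markers. Alternatives were quantile normalization, scaling to 7 spike-in probes, normexp correction of median spot signals (offset 50), deposited values, no filter, a filter asking for 24 arrays, the mean of a gene's probes, outlier spots kept, a floor of 1, the replicate block, only the conditions compared, no moderation, and leaving out each replicate number and each array. Where 1 array or replicate number is left out, the remaining arrays are assumed to vary like the other groups. PCSK1 and PCSK2 were left out of the tests as not above background.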

Additional observations from a re-analysis of the deposited data

How the results depend on the processing

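Of 792 recalculations of 36 results of the 6 tested genes, 759 stayed on their side of the threshold, 28 lost a call, 5 gained one and 0 called results changed direction. All 21 alternatives kept the PCSK5 difference between siRNAs with Wnt3a. Fitted on only the conditions compared, PCSK5 with FZD8_CRD (1.82, adjusted p = 0.205) and SCG5 with FZD8_CRD (1.5, adjusted p = 0.19) lost their call, while the difference of the PCSK5 responses (-1.62, adjusted p = 0.0248) and SCG5 between siRNAs without Wnt3a (-0.50, adjusted p = 0.0432) gained one; fewer arrays enter these fits. Leaving out arrays or replicate numbers, the Wnt3a difference of PCSK5 ran from 1.85 to 2.26 after control siRNA (adjusted p 0.000223 to 0.102), from 0.39 to 0.53 after β-catenin siRNA and from 1.64 to 2.18 with FZD8_CRD (1.78e-07 to 0.242), the difference of its responses from -1.83 to -1.41 (0.0867 to 1), and the siRNA difference from -0.61 to -0.21 without and from -2.07 to -1.94 with Wnt3a. For SCG5 these ran from 1.99 to 2.31 (0.00703 to 0.158), 0.80 to 1.32, 1.32 to 1.72 (0.00423 to 0.467), -1.5 to -0.67, -0.60 to -0.41 and -1.92 to -1.26 (0.00392 to 0.0716). For PCSK5 and SCG5, calls were lost only in these fits with fewer arrays, while FURIN with FZD8_CRD and PCSK6 between siRNAs with Wnt3a also lost theirs with spike-in scaling and with no filter on dim probes. Numbers of genes called moved more. In the order Wnt3a after control siRNA, after β-catenin siRNA, with FZD8_CRD, difference of responses, siRNA without and with Wnt3a, limma called 519, 10, 2044, 4, 2607 and 2610 genes, with spike-in scaling 54, 0 (704 at an unadjusted p under 0.05), 245, 0 (456), 183 and 653, and with the replicate block 1075, 46, 3294 and 10 for the first 4 and 4087 for the siRNA without Wnt3a. On only the conditions compared the first 5 were 1332, 3, 0 (4072), 41 and 4327. No filter on dim probes gave 290 for the first, normexp 5 for the second and 1 for the fourth, and the mean of a gene's probes 7 for the fourth. Leaving out arrays gave 4 to 573, 0 to 96, 0 to 5327, 0 to 11, 476 to 2376 and 588 to 2645; at the zeros, without replicate 2 the unadjusted counts were 1585, 2129 and 518, and after β-catenin siRNA 1591 without its first array and 1956 without the second with Wnt3a. Among untransfected cells, spike-in scaling took PCSK5 from 2.36 to 1.97, FURIN from 0.46 to 0.07 and PCSK7 from 0.26 to -0.13. It took SCG5 from 2.15 to 1.76, PCSK6 from -0.53 to -0.92 and PCSK1N from 0.08 to -0.31. The cause was not tested. Signal over background limits PCSK1, PCSK2 and the probe named for the longer PCSK5 transcript, at the detection limit on 24, 24 and 9 arrays.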
